A study of Mus musculus with 31 samples.

Results

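The proteasome genes of the mouse kidney were taken as every gene whose symbol begins with Psm, then a letter from a to g and a number, without the pseudogene mark -ps, which gave 50 of the 55487 genes in the deposited table. Another 5 symbols carry that mark and were left out. The rule reads symbols only and uses no measured value. It finds 2 genes that are not standard subunits: Psmc3ip, whose product acts in meiotic recombination, and Psme2b, a gene that resembles a copy of Psme2.

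Kidneys came from male mice on the B6 background of 2 Nbl1 genotypes, wild type (WT) and one the labels name HET, that were given cisplatin, a platinum chemotherapy agent known to injure the kidney tubule, or phosphate-buffered saline (PBS). Treatment began at 8 weeks of age and lasted 4 weeks, and kidneys were taken 3 days after it at a stated age of 11 weeks, so the ages given do not add up, which no source used here resolves. There were 8 WT PBS, 7 HET PBS, 8 WT cisplatin and 8 HET cisplatin animals, each with its own number and 1 bulk mRNA library. Neither the dose of cisplatin nor the type of allele was stated (not given in the sources used here). Nbl1, the targeted gene, was at 3.71 to 7.9 CPM (counts scaled to the library's size) in WT and 0.106 to 4.2 in HET kidneys under PBS, and at 10.7 to 26.2 and 0.861 to 13.9 under cisplatin, so the genotypes overlapped. The overlap came through WT PBS 6 and WT cisplatin 6 alone, as the other WT libraries had at least 5.83 CPM under PBS and 18.1 under cisplatin. In 5 libraries the reads of Nbl1 or of its neighbour Htr6 go against the label. HET PBS 1 and 6 and HET cisplatin 3 and 4 had at most 1.08 CPM of Nbl1 where the rest of their groups had at least 3.26, and the library labelled WT PBS 6 had 0.756 CPM of Htr6 where no other WT library passed 0.0677. The tests were repeated without these 5.

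The proteasome is the barrel-shaped protease that degrades proteins tagged with ubiquitin. Its 20S core stacks rings of alpha subunits, which gate the channel, around rings of beta subunits, which hold the catalytic sites, and the 19S regulatory particle binds ubiquitin chains, unfolds the substrate with a ring of ATPases and feeds it into the core. Cells exposed to interferon gamma make immune beta subunits (Psmb8, Psmb9 and Psmb10) that replace the constitutive ones (Psmb5, Psmb6 and Psmb7) in newly built cores, and the PA28 activator (Psme1 and Psme2) can cap the core in place of the 19S particle.

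Promoter sequences from RefSeq were matched to 42 of the 50 genes. They run from 250 bases before to 50 bases after the transcription start on the GRCm38.p6 assembly. Those of the 3 immune catalytic genes and of Psme1 are shown because interferon is known to induce these genes. Psmb8 lies at chr17:34197945-34198244 on the plus strand, Psmb9 at chr17:34187281-34187580 on the minus strand, Psmb10 at chr8:105938343-105938642 on the minus strand and Psme1 at chr14:55578244-55578543 on the plus strand. Capitals mark a match to TGACNNNGC (the antioxidant response element core) or GAAA, any 2 bases and GAAA again (the interferon-stimulated response element core), read on both strands.
Psmb8: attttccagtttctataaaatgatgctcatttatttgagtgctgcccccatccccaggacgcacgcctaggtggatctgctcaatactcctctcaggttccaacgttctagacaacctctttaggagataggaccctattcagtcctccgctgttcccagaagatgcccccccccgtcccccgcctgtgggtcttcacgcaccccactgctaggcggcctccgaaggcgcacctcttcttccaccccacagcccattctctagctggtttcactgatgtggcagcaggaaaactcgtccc
Psmb9: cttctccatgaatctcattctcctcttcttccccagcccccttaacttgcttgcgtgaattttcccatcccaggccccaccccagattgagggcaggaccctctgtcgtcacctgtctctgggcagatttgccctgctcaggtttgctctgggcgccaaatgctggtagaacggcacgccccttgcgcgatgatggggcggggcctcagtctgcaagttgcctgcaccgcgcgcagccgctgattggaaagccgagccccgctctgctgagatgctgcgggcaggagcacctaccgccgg
Psmb10: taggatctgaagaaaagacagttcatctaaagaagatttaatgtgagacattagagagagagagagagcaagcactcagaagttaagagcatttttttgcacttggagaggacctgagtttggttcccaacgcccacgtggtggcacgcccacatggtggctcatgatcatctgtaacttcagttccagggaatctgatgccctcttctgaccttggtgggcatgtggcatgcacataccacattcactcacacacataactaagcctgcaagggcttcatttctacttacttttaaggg
Psme1: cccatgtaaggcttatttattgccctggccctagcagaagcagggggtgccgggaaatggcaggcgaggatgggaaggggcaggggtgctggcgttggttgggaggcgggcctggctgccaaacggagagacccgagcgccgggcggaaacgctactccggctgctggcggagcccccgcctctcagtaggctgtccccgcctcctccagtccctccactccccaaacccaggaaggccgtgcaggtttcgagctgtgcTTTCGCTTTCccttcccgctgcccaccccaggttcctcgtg

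Psme1 held TTTCGCTTTC, the interferon element read on the opposite strand, from base 9. Psmb8, Psmb9 and Psmb10 held no match to these motifs in this window. The gene annotation used for the positions of neighbours starts Psmb8 at base 34197721, Psmb9 at base 34187764 and Psme1 at base 55578123. These starts lie outside the windows shown, and the bases around them were not searched. Among the 42 promoters, the antioxidant core was found in 6 (14.3%, against 13% of all 20977 promoters of the same length), the interferon letters in 5 (11.9%, against 3.4%) and ATTGG or CCAAT in 15 (35.7%, against 38.5%). The 5 genes with the interferon letters were Psmb3, Psmd4, Psmd9, Psme1 and Psmg4. The 6 with the antioxidant core were Psmb5, Psmb6, Psmc6, Psmd9, Psmd12 and Psme4. These are matches of letters and no binding was measured.

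Psmb9 and Tap1, a subunit of the peptide transporter that supplies MHC class I, are neighbours on chromosome 17 that are read in opposite directions from starts 211 bases apart, and their annotated genes share 212 bases. Psmb8 lies beside them on the other side of Tap1. The strand setting was not given in the sources used here, so reads in shared stretches cannot be told apart. This also holds for 498 exonic bases of Psmb8 that an opposite-strand gene, Gm20496, covers. It holds too for exonic bases of Psmb7 that Nek6 covers on the opposite strand. Exonic bases of Psma4, Psma5, Psmc3, Psmc3ip, Psmd1, Psmd3, Psmd9, Psmd13 and Psme1 are likewise shared with opposite-strand genes. The part of such stretches in the levels and ratios given below, that of Psmb10 to Psmb7 among them, was not tested.

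Total counts per library ran from 24650858 to 37301170, with the lowest in the cisplatin groups. Cisplatin kidneys held less of proximal tubule transcripts: the summed level of 6 markers was 16800 to 19600 CPM in the PBS groups and 1170 to 6850 CPM in the cisplatin groups. Directions are therefore given on more than 1 scale. TMM scaling, which centres most genes, gave factors of 0.838 to 0.907 in PBS and 1.062 to 1.205 in cisplatin libraries. The median of all 19268 tested genes moved by 0.06 (log2) in each genotype under TMM, by 0.45 in WT and 0.46 in HET when counts were scaled to library totals, and by 0.28 and 0.29 for log2(TPM + 1). WT cisplatin 6 and HET cisplatin 6 stood nearest to the PBS libraries on the first principal component of the expression values, and results that rest on them are given with and without them.

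In PBS kidneys of WT mice, the 31 constitutive subunits of the 26S particle (the core and the 19S particle together) were all expressed and spanned a narrow range of TPM, a level per transcript length. Psmb5, which carries the chymotrypsin-like site, stood highest at 79.2 ± 4.36 TPM (SD, n = 8). It was followed by Psmb6, the caspase-like subunit, at 70.5 ± 5.08, and Psma3, of the alpha ring, at 69.2 ± 3.3, which differed from each other by less than their spread. Psma2, of the alpha ring, stood lowest at 19.6 ± 1.17, just under the lid subunit Psmd12 at 20.5 ± 0.914.

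The immune catalytic subunits were far below these. Psmb10 had 8.12 ± 1.03 TPM, Psmb8 had 5.34 ± 1.2 and Psmb9 had 1.96 ± 0.551 (SD, n = 8) in WT PBS. Psma8, the alpha subunit of the testis, had 171 counts over all 31 libraries and 0 to 12 in any of them, and was not tested. Psmb11, the catalytic subunit of the thymic cortex, reached at most 0.564 CPM in a library. The other 49 genes, Psmb11 among them, passed the filter on low counts.

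Tests used edgeR's quasi-likelihood test on the counts with TMM scaling, with Benjamini-Hochberg adjustment over the 19268 genes and a threshold of 0.05. Fold changes are given on the log2 scale with the standard error (SE), and CPM values are TMM-scaled. Under TMM, cisplatin changed most 26S genes downwards by small amounts, while both PA28 genes, Psmb10, and the assembly chaperones Psmd10 and Psmg4 rose. When counts were scaled to library totals, no proteasome gene was called lower in either genotype.

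In WT mice, 7 of the 49 genes were higher with cisplatin and 23 lower under TMM, where 33.6% and 29.6% of all tested genes were called in those directions. In HET mice 6 were higher and 22 lower, where 31% and 28% of all genes were called. In either direction, 63.2% of all genes were called in WT and 59% in HET. DESeq2 gave 7 higher and 24 lower in WT, where 32.7% and 30.9% of all genes were called, and 6 and 24 in HET, where 30.6% and 29.1% were. Read library by library on CPM, all cisplatin values lay above all PBS values for 3 genes in WT and below them for 13, where 14.4% and 17.4% of all genes did so, and for 5 and 11 in HET, where 11% and 14.9% did so. The median over the 49 genes was −0.13 in WT and −0.09 in HET. Scaled to library totals, 32 genes were higher in WT and 36 in HET and 0 lower, where 61.4% and 62.2% of all genes were called higher and 14.9% and 12.5% lower, and the medians turned to 0.26 and 0.31. The limma test of log2(TPM + 1) gave 35 and 39 higher and 0 lower, where 62.6% and 63.9% of all genes were higher and 12.7% and 10.3% lower.

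Set against the median of all genes, which a change of scale by library leaves nearly in place, 41 of the 49 genes lay below it in WT and 39 in HET, both under TMM and under library totals. Their median lay 0.19 below that of all genes in WT and 0.15 below it in HET (differences of −0.19 and −0.15). On log2(TPM + 1), 25 and 22 of the 49 lay below it, and the differences of the medians were −0.01 and 0.05. That measure is no change of scale by library alone, since TPM is a level per transcript length and 1 is added to each TPM. Which of these moved the values was not tested. Between library totals and log2(TPM + 1) in WT, the median of all genes went from 0.45 to 0.28. That of the 49 genes went from 0.26 to 0.28. In bulk tissue, fewer cells of a type and less RNA per cell cannot be told apart, and the part that the loss of tubule transcripts has in these values was not tested.

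The 2 genotypes were called alike for most genes: 5 were higher in both and 21 lower in both. Psma7 and Psmd11 were called higher in WT alone and Psmb8 in HET alone. Psmc5 and Psme3 were called lower in WT alone and Psme2b in HET alone. A call in 1 genotype alone is no difference between them, and the test of that difference is given further on.

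**Figure D1:**
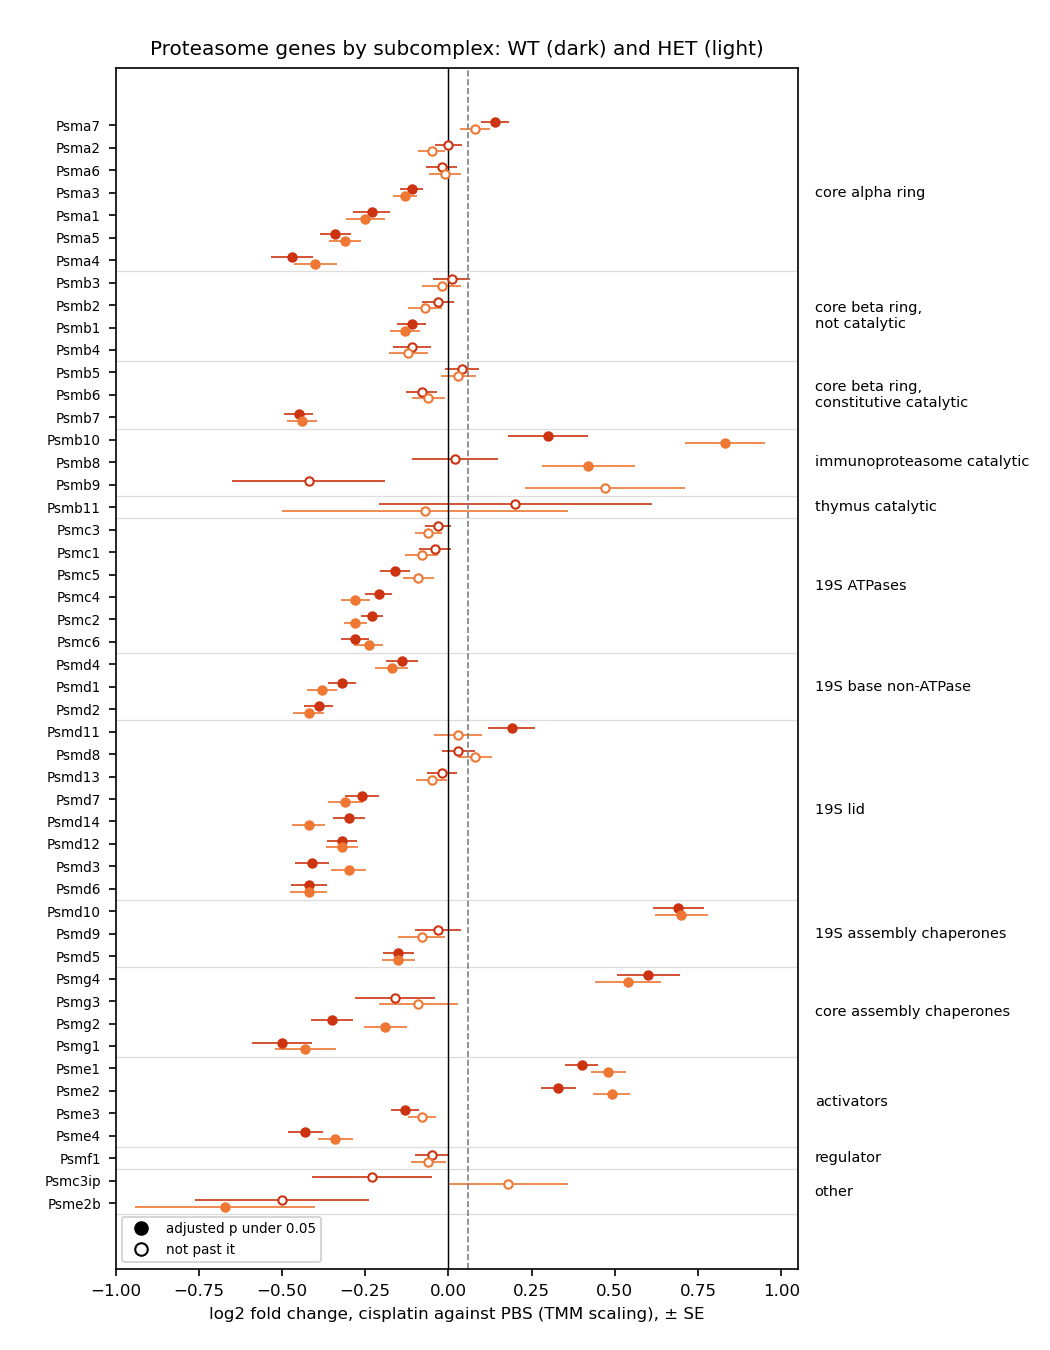
Log2 fold change (x axis, cisplatin against PBS, TMM scaling) of the 49 tested proteasome genes, grouped by subcomplex, with WT in dark and HET in light colours; bars are SE, filled points passed an adjusted p of 0.05, and the dashed line is the median of all genes. Psmd10, Psmg4, Psme1, Psme2 and Psmb10 stand to the right in both genotypes, while the falls on the left, down to −0.50 for Psmg1 in WT and −0.67 for Psme2b in HET, are not called when counts are scaled to library totals.

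Counts for each subcomplex stand beside the shares of all tested genes. Under TMM, 33.6% of all genes were higher and 29.6% lower in WT, and 31% and 28% in HET. Under library totals these shares were 61.4% and 14.9% in WT and 62.2% and 12.5% in HET. Within the 20S core, the alpha ring did not move as 1 unit. Under TMM, 4 of its 7 genes were lower in WT and 4 in HET, 1 was higher in WT, and log2 fold changes in WT ran from −0.47 for Psma4 to 0.14 for Psma7. Scaled to library totals, 5 were higher in WT and 6 in HET, and the lowest values were −0.08 and −0.00. Psma4 was at 95.5 to 101.0 CPM (median 97.1) in WT PBS and 62.9 to 87.8 (median 68.1) in WT cisplatin, and at 90.5 to 106.0 (median 100) in HET PBS and 65.3 to 91.6 (median 74.4) in HET cisplatin. The WT groups did not overlap, and in HET cisplatin only library 6, the highest, reached into the PBS range. The fold change of Psma4 was −0.47 (SE 0.063, edgeR adjusted p = 1.3e-07) in WT and −0.40 (SE 0.065, 3.61e-06) in HET under TMM, against −0.08 and −0.00 under library totals, where neither passed.

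Psma4 and Psmb3 had fractional counts in 100% of the libraries, and Psma2, Psmc2, Psmd11, Psme2 and Psme2b in 96.8%. How the fractions arose was not tested, and the levels of these genes are uncertain where near-identical copies exist.

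The structural beta subunits (Psmb1 to Psmb4) changed little under TMM: 1 of 4, Psmb1, was lower in each genotype, and all 4 lay between −0.13 and 0.01. Under library totals all 4 were higher in both genotypes, where 61.4% of all genes were in WT and 62.2% in HET. Of the 3 constitutive catalytic subunits, Psmb7 (the trypsin-like site) stood apart from Psmb5 and Psmb6. Psmb7 was at 87.6 to 98.0 CPM (median 94.7) in WT PBS and 64.0 to 78.0 (median 66.8) in WT cisplatin, and at 87.1 to 105.0 (median 96.1) in HET PBS and 66.1 to 74.8 (median 72.7) in HET cisplatin. Neither genotype's groups overlapped, and every cisplatin library was lower. Its fold change was −0.45 (SE 0.044, edgeR adjusted p = 2.45e-10) in WT and −0.44 (SE 0.046, 1.17e-09) in HET under TMM, −0.06 and −0.03 under library totals and −0.03 and 0.02 for log2(TPM + 1), with no call on the latter scales.

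Psmb5 was at 80.0 to 91.5 CPM (median 87.2) in WT PBS and 77.7 to 101.0 (median 88.7) in WT cisplatin, with 78.9 to 92.2 (median 88.1) and 80.1 to 100 (median 89.0) in the HET groups. The groups overlapped almost wholly, and the fold changes of 0.04 (SE 0.051) and 0.03 (SE 0.052) did not pass. Under library totals they were 0.43 and 0.44 and passed. Psmb6 overlapped likewise, at 54.5 to 66.3 CPM (median 62.9) in WT PBS, 54.0 to 68.6 (median 57.7) in WT cisplatin, 60.7 to 66.9 (median 62.3) in HET PBS and 56.0 to 65.4 (median 62.2) in HET cisplatin. Its fold changes of −0.08 and −0.06 did not pass under TMM and were 0.32 and 0.34, past the threshold, under library totals.

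Psmb10, the immune counterpart of Psmb7, went the other way. It was at 5.85 to 7.39 CPM (median 6.48) in WT PBS and 6.51 to 11.5 (median 7.66) in WT cisplatin. In the HET groups it was at 5.17 to 6.35 (median 5.76) with PBS and 8.33 to 16.6 (median 9.54) with cisplatin. The WT groups overlapped, whereas every HET cisplatin library lay above every HET PBS library. The rise was 0.30 (SE 0.12, edgeR adjusted p = 0.0291) in WT and 0.83 (SE 0.12, 7.96e-07) in HET, with 0.68 and 1.23 under library totals. Without WT cisplatin library 6, the highest, the WT fold change was 0.21 and not past the threshold (adjusted p = 0.103), whereas without both libraries that stand apart it was 0.21 and past it (0.0215). In HET it was 0.71 (adjusted p = 2.96e-07) without cisplatin library 6.

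Psmb8, the counterpart of Psmb5, was at 6.14 to 10.4 CPM (median 7.68) in WT PBS and 5.41 to 9.21 (median 8.23) in WT cisplatin, and did not pass the test in WT (0.02, SE 0.13, edgeR adjusted p = 0.903). In HET it was at 5.45 to 8.5 (median 6.81) with PBS and 6.92 to 15.2 (median 8.42) with cisplatin. These groups overlapped too, and HET cisplatin 6 lay well above the next library, at 10.7. The HET fold change was 0.42 (SE 0.14, adjusted p = 0.00929), 0.29 (0.036) without cisplatin library 6, and 0.39 (0.0617) without the 5 libraries that go against their label. Under library totals it passed in both genotypes, at 0.42 in WT and 0.82 in HET.

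Psmb9, the counterpart of Psmb6, was the lowest of the immune subunits. It was at 2.81 to 4.0 CPM (median 3.22) in WT PBS, 1.96 to 3.07 (median 2.47) in WT cisplatin, 2.13 to 4.09 (median 2.74) in HET PBS and 2.05 to 11.3 (median 3.1) in HET cisplatin. All HET cisplatin libraries but number 6 were at or below 3.39 CPM, within the PBS range or below it. Neither fold change passed, at −0.42 (SE 0.23, edgeR adjusted p = 0.116) for WT mice and 0.47 (SE 0.24, 0.0938) for HET mice, and without HET cisplatin 6 the HET value was 0.03 (0.849). Without both libraries that stand apart, the WT value was −0.43 and passed (adjusted p = 0.00546). Under library totals the WT value was −0.03 (0.906) and the HET value 0.85 (0.00148).

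**Figure D2:**
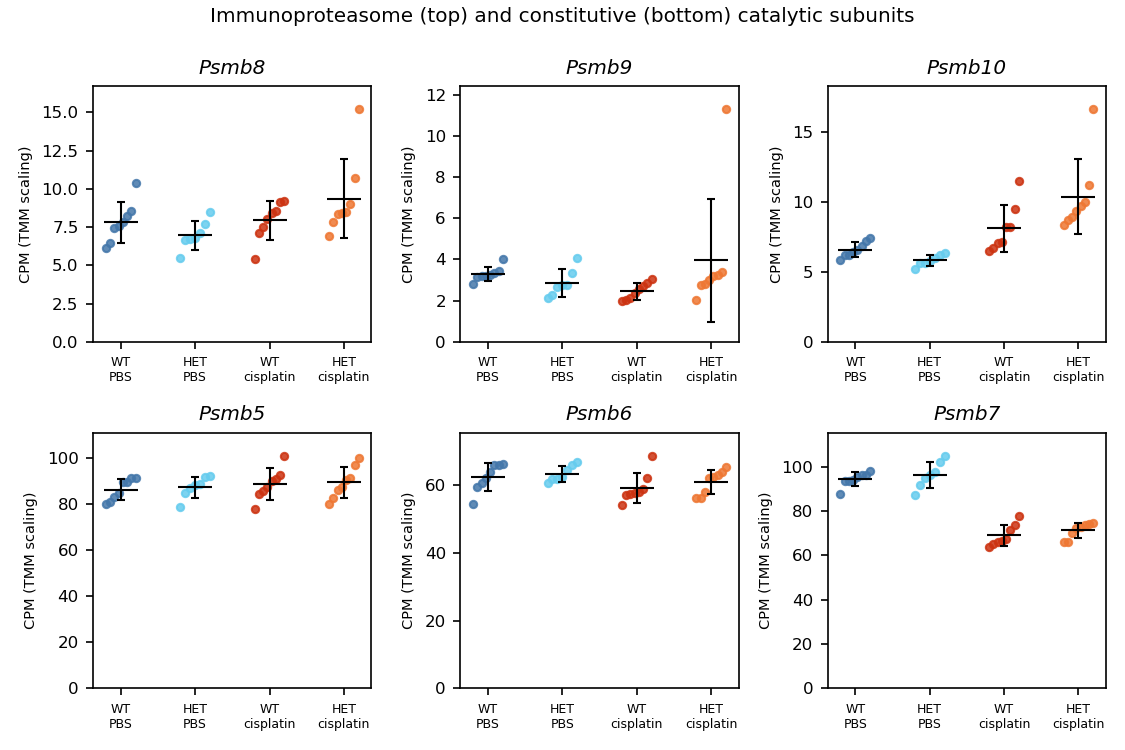
CPM (y axis, TMM scaling, from 0) of the immune catalytic genes (top row) and the constitutive ones (bottom row) in every library of the 4 groups, with the mean and SD as black bars. Psmb7 falls and Psmb10 rises in each genotype under TMM, and Psmb7 shows no change under library totals; the single high HET cisplatin point in the top row is library 6, at 15.2, 11.3 and 16.6 CPM.

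The balance of immune to constitutive subunits was compared as the log2 ratio of their TPM within each library, which no scaling of libraries alters. The Psmb10 to Psmb7 ratio in WT mice was −3.29 to −2.79 with PBS and −2.55 to −1.9 with cisplatin. In HET mice it was −3.51 to −2.95 with PBS and −2.35 to −1.4 with cisplatin. The groups did not overlap in either genotype. The ratio rose by 0.67 in WT (two-sided exact permutation test, p = 0.000155, adjusted over the 6 ratios tested 0.000932) and by 1.2 in HET (p = 0.000311, adjusted 0.000932), p-values that are the smallest these group sizes can give. It was higher by 0.62 and 1.13 without the libraries that stand apart, past the threshold in both genotypes.

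The other 2 pairs gave no such uniform shift. The Psmb8 to Psmb5 ratio differed by −0.00 in WT (exact permutation p = 0.986) and by 0.37 in HET (p = 0.041, adjusted 0.0615), so neither passed after adjustment. The Psmb9 to Psmb6 ratio fell by 0.44 in WT (exact permutation p = 0.0208, adjusted 0.0416) from a mean of −5.22 ± 0.36 to −5.66 ± 0.31 (SD, n = 8 each). This call was lost without WT cisplatin 6 (−0.40, adjusted p = 0.0615) and among the animals numbered in the 600s (−0.14, adjusted p = 0.526, exact permutation tests). In HET the ratio differed by 0.4 (exact permutation p = 0.222, adjusted 0.266).

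HET cisplatin 6 set the upper end of all 3 immune genes and of Tap1 and Irf1, which interferon is known to induce. Tap1 stood at 63.5 CPM there against 23.0 to 34.7 in the rest of its group, and Irf1, a transcription factor of the interferon response, at 75.3 against at most 27.1. The 12 tested genes of antigen presentation and interferon control did not move as 1 list in this library. It was the highest of its group for 6 of them and the lowest for 4 (Ifngr1, Ifngr2, H2-K1 and H2-D1). The interferon gamma receptor genes Ifngr1 and Ifngr2 were at 59.2 and 25.6 CPM there, against at least 69.9 and 37.8 in the rest of the group. The summed level of 14 leukocyte markers in HET cisplatin 6 was 40.6 CPM, the lowest of all libraries, and its 6 proximal tubule markers summed to 6450 CPM, the highest of its group.

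Leukocyte markers did not move as 1 list with cisplatin. Under TMM, 4 of the 12 tested were higher and 6 lower in WT, where 33.6% and 29.6% of all genes were. In HET 3 were higher and 6 lower, where 31% and 28% of all genes were. The summed level of the list was 92.1 to 114.0 CPM in WT PBS, 90.4 to 223.0 in WT cisplatin, 89.4 to 126.0 in HET PBS and 40.6 to 148.0 in HET cisplatin. The defining gene Ptprc was lower in both genotypes under TMM (−0.39 and −0.42). Of its myeloid genes, the receptor gene Csf1r (−0.71 and −0.84) and Itgax (−1.05 and −0.84) were lower and 3 were higher in both genotypes: Itgam by 3.40 in WT and 2.20 in HET, the macrophage gene Cd68 by 2.12 and 2.25, and the lysozyme gene Lyz2 by 2.17 and 1.34. For those 3 genes every WT cisplatin library lay above every WT PBS library. Itgam was at 7.75 to 23.0 CPM against 0.567 to 2.33, Cd68 at 4.43 to 16.9 against 1.44 to 2.83 and Lyz2 at 28.9 to 119.0 against 8.69 to 18.2. The HET groups overlapped through cisplatin library 6 alone, at 1.22, 2.79 and 8.2 CPM. The rest of HET cisplatin had at least 10.6, 5.91 and 33.0 CPM, against at most 4.51, 3.04 and 27.5 in HET PBS. No marker was at 0 in all libraries, and the T cell gene Cd3e was at 0 in 1 library. Their part in the levels of the immune subunits was not tested.

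The activators split by kind. Psme1 and Psme2, which form PA28, rose in both genotypes under every scale. Psme1 was at 28.9 to 35.1 CPM (median 33.2) in WT PBS and 38.8 to 47.7 (median 42.1) in WT cisplatin, with 30.1 to 35.7 (median 32.0) and 40.7 to 49.4 (median 45.5) in the HET groups. In each genotype every cisplatin library lay above every PBS library. The rise was 0.40 (SE 0.05, edgeR adjusted p = 2.73e-08) in WT and 0.48 (SE 0.052, 2.02e-09) in HET, and 0.79 and 0.89 under library totals.

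Psme2 was at 21.4 to 26 CPM (median 22.8) in WT PBS and 25.7 to 31.3 (median 30.0) in WT cisplatin, and at 20.2 to 23.5 (median 22.4) in HET PBS and 28.8 to 38.2 (median 30.7) in HET cisplatin. The WT groups met at their edges, and the HET groups did not overlap. The rise was 0.33 (SE 0.053, edgeR adjusted p = 2.35e-06) in WT and 0.49 (SE 0.055, 4.79e-09) in HET. The PA28 genes lie 5911 bases apart on chromosome 14, and Psme2b, at 8 to 48 counts a library, did not share the rise (−0.50, adjusted p = 0.0909 in WT and −0.67, 0.0317 in HET), with −0.11 and −0.28 under library totals.

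Psme3, which forms the nuclear PA28 gamma ring, and Psme4, the PA200 cap, went down under TMM and not under library totals. Psme4 was at 282.0 to 340.0 CPM (median 309.0) in WT PBS and 214.0 to 265.0 (median 225.0) in WT cisplatin, and at 284.0 to 334.0 (median 310.0) and 222.0 to 268.0 (median 248.0) in the HET groups. No cisplatin library reached the PBS range. The fold change was −0.43 (SE 0.052, edgeR adjusted p = 1.87e-08) in WT and −0.34 (SE 0.053, 2.28e-06) in HET, against −0.03 and 0.06 under library totals. Psme3 was at 85.7 to 96.7 CPM (median 91.0) in WT PBS, 77.4 to 86.3 (median 84.2) in WT cisplatin, 87.4 to 99.2 (median 93.2) in HET PBS and 76.1 to 95.5 (median 88.2) in HET cisplatin. Its groups overlapped, with fold changes of −0.13 (adjusted p = 0.00584, edgeR) in WT and −0.08 (0.0932) in HET, which turned to 0.26 and 0.32, both past the threshold, under library totals.

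Psmf1, which encodes the proteasome inhibitor PI31, was at 25.9 to 29.7 CPM (median 26.9) in WT PBS, 24.1 to 29.5 (median 26.1) in WT cisplatin, 23.7 to 29.1 (median 26.8) in HET PBS and 22.7 to 27.5 (median 26) in HET cisplatin. The groups overlapped, and the fold changes of −0.05 and −0.06 did not pass under TMM. They were 0.34 in each genotype, and passed, under library totals.

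In the 19S base, 4 of the 6 ATPase genes (Psmc1 to Psmc6), which unfold the substrate, were lower in WT and 3 in HET under TMM. The 3 non-ATPase base genes, the scaffolds Psmd1 and Psmd2 and the ubiquitin receptor Psmd4, were lower in both genotypes, from −0.39 to −0.14 in WT and −0.42 to −0.17 in HET. Under library totals all 6 ATPase genes were higher in both genotypes, and 1 of the 3 non-ATPase genes was. On that scale 61.4% of all genes were higher in WT and 62.2% in HET. In the lid, 5 of 8 genes were lower in each genotype under TMM and 4 in WT and 3 in HET were higher under library totals. They ran from −0.42 for Psmd6 to 0.19 for Psmd11 in WT, and Psmd14, the deubiquitinase that removes the chain from the substrate, was at −0.30 in WT and −0.42 in HET.

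Psmd6, a subunit of the lid, was lower under TMM. It was at 60.8 to 73.7 CPM (median 68.1) in WT PBS and 44.4 to 59.1 (median 50.2) in WT cisplatin, and at 63.4 to 73.6 (median 66.9) and 45.7 to 55.3 (median 50.8) in the HET groups. The groups did not overlap. Its fold change was −0.42 (SE 0.054, edgeR adjusted p = 5e-08) in WT and −0.42 (SE 0.055, 9.21e-08) in HET under TMM, against −0.03 and −0.02, not past the threshold, under library totals.

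Chaperones that help to assemble the particle had the largest rises of the family in WT (Psmd10 and Psmg4). In HET the rise of Psmb10 (0.83) was above both with all libraries. Without HET cisplatin 6 the largest rise of the family in HET was 0.74, and it was not that of Psmb10. Psmd10 (gankyrin), a chaperone of the 19S base that is also known as an oncoprotein, was at 13.9 to 16.9 CPM (median 15.5) in WT PBS and 22.3 to 31.3 (median 24.1) in WT cisplatin, and at 14.2 to 16.5 (median 15.8) and 19.5 to 30.9 (median 24.3) in the HET groups. Every cisplatin library was above every PBS library. The rise was 0.69 (SE 0.077, edgeR adjusted p = 3.66e-09) in WT and 0.70 (SE 0.08, 7.66e-09) in HET, with 1.08 and 1.11 under library totals and 1.03 and 1.06 for log2(TPM + 1).

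The other 2 chaperones of the base, Psmd5 and Psmd9, gave smaller values. Psmd5 was at −0.15 and past the threshold in each genotype, and Psmd9 was at −0.03 and −0.08 with no call. Under library totals all 3 were higher in both genotypes, where 61.4% of all genes were in WT and 62.2% in HET.

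Among the 4 chaperones of the 20S core, which guide the alpha ring (Psmg1 to Psmg4), Psmg4 rose and Psmg1 and Psmg2 were lower under TMM in both genotypes. Psmg4 was at 3.62 to 4.63 CPM (median 3.9) in WT PBS and 5.08 to 7.16 (median 6.07) in WT cisplatin, with 3.48 to 4.58 (median 3.99) and 4.66 to 7.75 (median 5.54) in the HET groups. The groups did not overlap, and the rise was 0.60 (SE 0.095, edgeR adjusted p = 2.21e-06) in WT and 0.54 (SE 0.099, 2.45e-05) in HET, with 0.99 and 0.94 under library totals. Psmg1 was at 13.7 to 16.6 CPM (median 15.1) in WT PBS, 8.33 to 14.2 (median 10.3) in WT cisplatin, 13.8 to 17.9 (median 14.9) in HET PBS and 9.98 to 14.2 (median 11.1) in HET cisplatin. Its groups overlapped through cisplatin library 6 alone in each genotype. The other cisplatin libraries reached at most 12.1 in WT and 13.3 in HET. The Psmg1 fold changes of −0.50 (SE 0.089, edgeR adjusted p = 1.3e-05) and −0.43 (SE 0.091, 0.000162) shrank to −0.11 and −0.03, not past the threshold, under library totals.

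**Figure D3:**
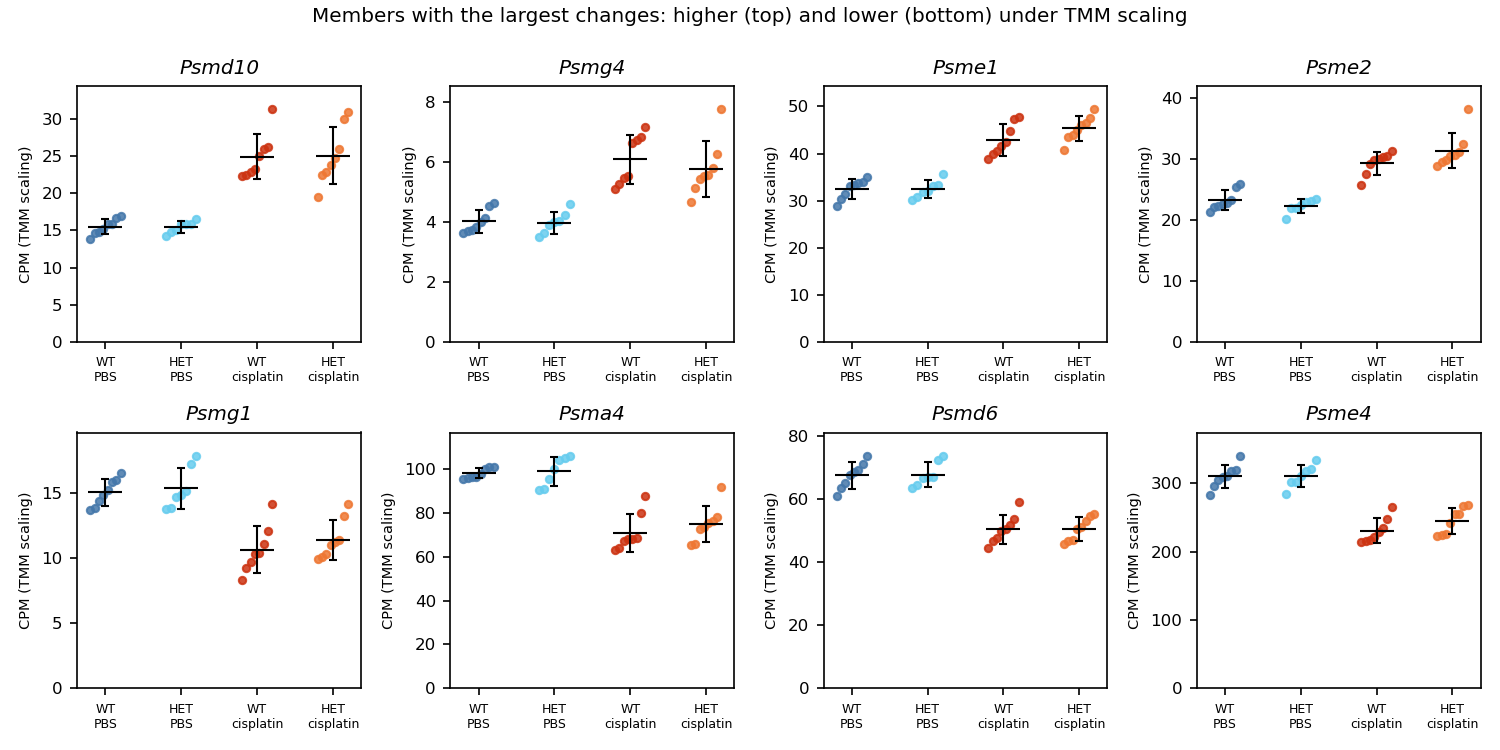
CPM (y axis, TMM scaling, from 0) in every library of the 4 groups for 4 genes that rose (top row) and 4 that were lower under TMM (bottom row), with the mean and SD as black bars. Cisplatin points of Psmd10, Psmg4 and Psme1 lie above all PBS points of their genotype; the drops in the bottom row are not called under library totals.

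Since the direction of most 26S genes turned with the scale, each gene was also set against the median TPM of the 31 constitutive 26S genes of its own library. That median was 33.1 to 38.7 TPM (WT) and 35.0 to 38.4 (HET) under PBS and 40.3 to 46.6 (WT) and 41.2 to 49.6 (HET) under cisplatin, a share of all transcripts that is free of TMM and not of changes in other transcripts. Relative to it, all cisplatin libraries lay above all PBS libraries for 12 of 49 genes in WT and below them for 3, where 19.3% and 10.3% of all genes did so. In HET these were 9 and 3 of 48 genes, where 17.1% and 7.82% of all genes did so.

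Genes above in both genotypes were Psma6, Psma7, Psmd8, Psmd10, Psme1 and Psmg4, with relative rises in log2 TPM of 0.18 and 0.2 for Psma6, 0.35 and 0.29 for Psma7, 0.24 and 0.3 for Psmd8, 0.88 and 0.9 for Psmd10, 0.62 and 0.72 for Psme1, and 0.81 and 0.76 for Psmg4 (WT and HET). Psmb7 alone was below in both, by −0.27 and −0.24. Of the constitutive core genes, Psma6 and Psma7 thus had higher and Psmb7 lower transcript levels relative to the median defined above. In each genotype this held for every cisplatin library against every PBS library. In WT alone, Psma2, Psma3, Psmb3 and Psmb5 were also above and Psma4 below. In HET alone, Psmb2 and Psmb6 were also above. These genes are themselves part of that median, and the make-up of the particle was not measured. Psmb10 gained 0.4 in WT, where the groups overlapped, and 0.97 in HET, where they did not.

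**Figure D4:**
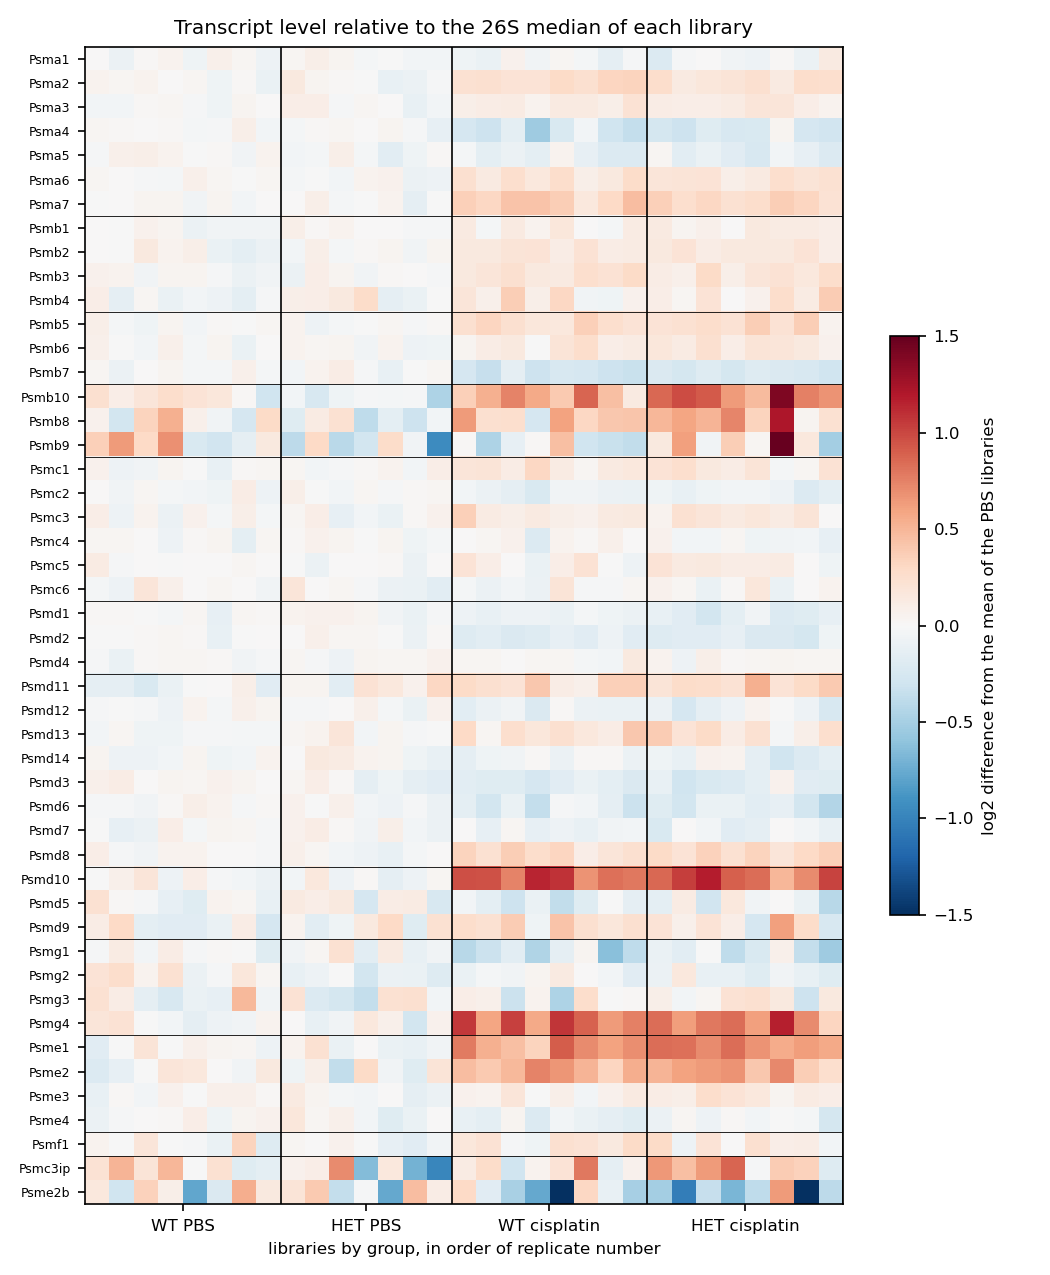
Log2 TPM of each proteasome gene relative to the 26S median of its library, shown as the difference from the mean of all PBS libraries (colour, from −1.5 in blue to 1.5 in red), for libraries in columns by group and genes in rows by subcomplex. Psmd10, Psmg4, Psme1 and Psme2 are red across the cisplatin columns and Psmb7 is pale blue, while HET cisplatin 6 stands out in the 3 immune genes.

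Genotype made no difference that passed. No proteasome gene was called between HET and WT under PBS, between HET and WT under cisplatin, or in the interaction, which asks whether the cisplatin responses differ, by edgeR, DESeq2 or limma. Of all genes, 0% were called under PBS, 0.00519% (1 gene) under cisplatin and 0% in the interaction by edgeR. At an unadjusted p under 0.05, edgeR counted 2, 2 and 4 of the 49 genes in these contrasts, where 5.02%, 5.53% and 5.6% of all genes did so. DESeq2 counted 2, 2 and 4, against 5.35%, 5.89% and 5.83% of all genes, and limma 4, 2 and 4, against 3.64%, 5.72% and 4.79%.

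The 4 in the interaction were Psmb8, Psmb9, Psmb10 and Psme2, all with the higher fold change in HET and with adjusted p of 0.725 to 0.884 by edgeR. In WT, Psmb9 was at −0.42 and Psmb8 at 0.02, neither past the threshold. For Psmb10 the difference of the responses was 0.54 (SE 0.17) and for Psmb9 0.89 (SE 0.34), which became 0.41 and 0.45 without HET cisplatin 6. Without that library the count was 2 of 49 (5.59% of all genes), since Psmb8 went from 0.40 to 0.27 (unadjusted p = 0.111 by edgeR) and Psme2 from 0.16 to 0.12 (0.0861). Among the animals numbered in the 600s alone it was 0 of 49 (4.01% of all genes). Under PBS, Psmd11 was at 85.4 to 108.0 CPM in WT and 97.9 to 127.0 in HET (0.20, SE 0.072, edgeR adjusted p = 0.778), and Psmg2 was at −0.20 (SE 0.065, 0.751).

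Genes that work with the proteasome were counted by list. Under TMM, 33.6% of all genes were higher and 29.6% lower in WT, and 31% and 28% in HET. Under library totals these shares were 61.4% and 14.9% in WT and 62.2% and 12.5% in HET, and they apply to each list. Of the 12 tested among further components and factors, 2 were higher and 6 lower in WT and 1 and 6 in HET under TMM, against 10 higher and 0 lower in each under library totals. Pomp, the maturation factor of the core, was at 49.6 to 55.5 CPM (median 53.1) in WT PBS and 40.4 to 46.8 (median 43.5) in WT cisplatin, groups that did not overlap. Its fold change was −0.27 in WT and −0.29 in HET, which turned to 0.13 and 0.12 under library totals. Adrm1, a ubiquitin receptor of the base, gave −0.38 and −0.37, and 0.01 and 0.03 under library totals.

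Among the 8 genes that control transcription of proteasome genes, 2 were higher and 2 lower in WT and 2 and 3 in HET, against 5 higher and 0 lower in WT and 4 and 1 in HET under library totals. Nfe2l2, the antioxidant factor NRF2, was at 67.3 to 105.0 CPM (median 92.8) in WT PBS and 129.0 to 261.0 (median 216.0) in WT cisplatin, and at 86.4 to 106.0 (median 99.7) and 167.0 to 226.0 (median 188.0) in the HET groups. No groups overlapped, and its rise was 1.25 (SE 0.1, edgeR adjusted p = 4.45e-12) in WT and 0.94 (SE 0.11, 4.35e-09) in HET. Nfe2l1, the factor that raises proteasome genes when the proteasome is inhibited, was at 0.08 and 0.05 with no call under TMM, and at 0.48 and 0.45, past the threshold, under library totals. Ddi2 and Ngly1, the protease and the glycanase that process its product, were lower under TMM (−0.56 and −0.61 for Ddi2, −0.31 and −0.36 for Ngly1), while under library totals Ddi2 was at −0.17, not past the threshold, and −0.21, and Ngly1 turned to 0.09 and 0.05.

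Of 5 ubiquitin and E1 genes, 1 was higher and 3 lower in WT and 1 and 2 in HET under TMM, against 4 higher and 1 lower in WT and 4 and 0 in HET under library totals. The polyubiquitin gene Ubb was at 787.0 to 894.0 CPM (median 843.0) in HET PBS and 519.0 to 684.0 (median 574.0) in HET cisplatin, with no overlap, and its fold change was −0.50 in WT and −0.51 in HET, against −0.11 and −0.10 under library totals. Rps27a, whose product is ubiquitin fused to a ribosomal protein, rose by 0.39 and 0.41. Of 9 genes for delivery of substrates, 1 was higher and 7 lower in WT and 1 and 6 in HET, against 5 higher and 1 lower in each under library totals. The 1 that stayed lower was Vcp, the segregase p97, at 435.0 to 487.0 CPM (median 463.0) in WT PBS and 251.0 to 302.0 (median 262.0) in WT cisplatin. Its fold change was −0.80 (SE 0.044, edgeR adjusted p = 5.48e-16) in WT and −0.74 (SE 0.045, 9.79e-15) in HET, and −0.41 and −0.33, still past the threshold, under library totals.

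Of 12 genes of antigen presentation and interferon control, 7 were higher and 1 lower in WT and 7 and 0 in HET under TMM. Of all genes, 33.6% were higher in WT and 31% in HET on that scale. Under library totals 11 and 12 were higher and 0 lower, where 61.4% and 62.2% of all genes were higher. Tap1 was at 8.23 to 11.9 CPM (median 10.5) in WT PBS and 16.2 to 28.2 (median 25.9) in WT cisplatin, and at 6.98 to 10 (median 8.05) and 23.0 to 63.5 (median 27.2) in the HET groups. The groups did not overlap, and Tap1 rose by 1.29 (SE 0.15, edgeR adjusted p = 9.13e-09) in WT and 1.93 (SE 0.16, 1.04e-11) in HET, while Psmb9, its neighbour, did not pass in either genotype. The receptor genes of interferon gamma rose too, Ifngr1 by 1.39 and 1.15 and Ifngr2 by 0.78 and 0.87, and so did the class I gene H2-K1, by 0.49 and 0.48.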

How the data were processed

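Per the file headers and the values, the authors deposited expected counts, TPM and FPKM for 55487 genes in 31 libraries. The expected counts are not normalized and 12.52% of them are not whole, 22.58% for the proteasome genes. They were rounded before testing. The deposited TPM served levels and ratios, and the deposited FPKM, a constant multiple of TPM within a library, was not used. Per the submitters' processing notes, reads went through fastp, STAR and featureCounts, and the named builds are GRCm38 and mm10. Versions, and the tool behind fractional counts, were not given in the sources used here.

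Tests used edgeR 4.0.16 in R 4.3.3 (quasi-likelihood test, TMM, filterByExpr) on 1 fit of the 4 groups, adjusted by Benjamini-Hochberg over 19268 genes. Alternatives used DESeq2 1.42.0, limma 3.58.1 and other scalings, filters and library sets. Ratios used two-sided exact permutation tests. Fold changes have a prior count of 0.125. The code was tested on simulated data. Named genes are the catalytic, immune and activator genes, Psmf1, the 5 largest rises and falls in WT, and up to 4 of each pathway list by p, always with Nfe2l1, Nfe2l2 and Pomp. Other genes named, such as Psma7, Psmd11 and Irf1, were chosen after their values were seen. A few genes of the lists and 1 promoter motif are not reported here. The members and lists were chosen with earlier results of these data known. Nothing but the animal numbers says that libraries came from separate animals, and p-values measure the spread between these libraries. HET cisplatin animals are all numbered in the 600s, so number range and group are partly confounded.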

Additional observations from a re-analysis of the deposited data

Results flagged for a closer look

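Within groups of 7 or 8 libraries, 160 sets of values were searched for a library that stands far from the rest of its group. Dixon's criterion marked 17 of them, or 10.6%, where chance marks about 1 in 20.

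HET cisplatin 6 stood high for Psmb8 (15.2 CPM, others at most 10.7), Psmb9 (11.3, others at most 3.39), Psmb10 (16.6, others at most 11.2), Psme2 (38.2, others at most 32.5) and Tap1 (63.5, others at most 34.7), and for the log2 ratio of Psmb9 to Psmb6 (−3.6, others at most −4.91). It stood low for Nfe2l3, a relative of Nfe2l1 (0.576 CPM, others at least 1.53). WT cisplatin 6 stood low for Nfe2l2 (129.0 CPM, others at least 201.0) and Tap1 (16.2, others at least 24.6).

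WT cisplatin 4 was high for Psmd10 (31.3 CPM) and Rps27a (242.0 CPM). WT cisplatin 1 was low for Psme3 (77.4 CPM) and WT PBS 2 for Psmb7 (87.6 CPM). WT PBS 7 was high for Nfe2l3 (1.47 CPM). HET PBS 2 was low for Pomp (49.3 CPM), HET PBS 3 was high for Vcp (491.0 CPM) and HET PBS 6 for Ddi2 (224.0 CPM).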

How the results depend on the processing

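Scaling to library totals or testing log2(TPM + 1) with limma changed the counts of proteasome genes, as given above: 32 and 35 higher in WT and 36 and 39 in HET, with 0 lower. Pathway genes called higher became 35 and 37 in WT and 35 and 39 in HET, and those called lower 2 and 1 in WT and 2 and 1 in HET. The median over the proteasome genes turned to 0.26 and 0.28 in WT and to 0.31 and 0.35 in HET. The gene-wise log2 fold changes that turned to positive under library totals were, in WT and HET, Psmb6 0.32 and 0.34, Psme3 0.26 and 0.32, Psmf1 0.34 and 0.34, Pomp 0.13 and 0.12, Adrm1 0.01 and 0.03, Txnl1 0.11 and 0.09, Ublcp1 0.11 and 0.23, Ngly1 0.09 and 0.05, Uba1 0.17 and 0.24, Uba6 0.16 and 0.33, Faf1 0.08 and 0.11 and Ubqln1 0.05 and 0.04, in WT alone Nploc4 0.03 and in HET alone Psme4 0.06. For log2(TPM + 1) they were Psmb6 0.36 and 0.41, Psme3 0.29 and 0.40, Psme4 0.13 and 0.21, Psmf1 0.32 and 0.36, Psmd6 0.06 and 0.06, Pomp 0.13 and 0.08, Adrm1 0.08 and 0.09, Txnl1 0.23 and 0.21, Ublcp1 0.17 and 0.27, Ngly1 0.16 and 0.14, Uba1 0.24 and 0.32, Uba6 0.15 and 0.30, Nploc4 0.11 and 0.06, Faf1 0.20 and 0.20 and Ubqln1 0.10 and 0.11, and in HET alone Psmb7 0.02, Psmg1 0.04 and Psma4 0.06. These scales differ from TMM by construction, in that they do not centre the genes; the cause of the shift itself was not tested.

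Size factors by RLE, DESeq2, further count filters, fits of only the groups in a comparison, covariates for animal or library number, and leaving out libraries kept each count of called proteasome genes within 1.5 times. Among the animals numbered in the 600s the Psmb8 to Psmb5 ratio in HET passed (0.50, exact permutation test, adjusted p = 0.0485) and the Psmb9 to Psmb6 ratio in WT did not (−0.14). The latter was also not past the threshold without the libraries that stand apart (−0.40) or without WT cisplatin 6 (−0.40); the cause was not tested. Leaving out the libraries that stand apart or go against their label was chosen with results of these data seen. No paired analysis was possible because the labels give each animal its own number and no number that groups share.

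Psma8 was too low to be tested at this depth, and Psme2b rests on 8 to 48 and Psmb9 on 58 to 352 counts a library.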
